A study of Mus musculus with 11 samples.

Results

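The genes described here are the 3 TGF-β ligands Tgfb1, Tgfb2 and Tgfb3 and the 3 receptors Tgfbr1, Tgfbr2 and Tgfbr3, taken by symbol from the deposited single-cell tables, 6 of the 24898 genes listed at any age. Cells came from the dissected and dissociated cochlear floor of wildtype CD1 mice and were captured on the 10x Genomics Chromium system. The 11 libraries covered embryonic day 14 (E14, 2 libraries), embryonic day 16 (E16, 3 libraries), postnatal day 1 (P1, 4 libraries) and postnatal day 7 (P7, 2 libraries). All groups shared 1 strain and the wildtype genotype, no treatment was applied, and each library pooled several animals, so the library was the replicate. A library held 1247 to 5598 cells, 3828399 to 23523802 unique molecular identifiers (UMIs) in all and a median of 2478 to 5647.5 UMIs per cell.

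TGF-β ligands are secreted in latent complexes with their propeptide and a latent TGF-β binding protein, and become active once released, for instance by integrins or thrombospondin. The active dimer binds the type II receptor, encoded by Tgfbr2, which phosphorylates the type I receptor, encoded by Tgfbr1, and the type I receptor in turn phosphorylates Smad2 and Smad3. Betaglycan, encoded by Tgfbr3, is a co-receptor that presents TGF-β2 in particular, because TGF-β2 has little affinity for the type II receptor alone. In the cochlea the floor of the duct contains the prosensory cells that give rise to hair cells (HCs) and supporting cells, flanked medially by Kölliker's organ (KO) and laterally by Hensen's and other nonsensory cells.

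Cells were placed in classes by marker panels, and each class name below stands for cells like that type rather than for an identity given with the tables. None of the 6 genes was a marker in any panel. Lateral prosensory cells (LPsCs; 183 cells at E14 and 294 at E16) were gated on genes such as Fgfr3, Prox1 and Bmp2. All 6 markers kept out of the gate, Lgr5 and Fzd9 among them, were higher in the class than in the other cells in every library. The study picked Fzd9 and Elmo1, both kept out of the gate, as LPsC genes from these same E14 cells. Their direction at E14 was therefore not independent of the data. Pillar and Deiters cells (883 at P1 and 156 at P7) and HCs at E16, P1 and P7 (533, 994 and 234 cells) also passed with 6 of 6 markers kept out of the gate. The 47 HCs at E14 passed with 4 of 6. Cells gated on the KO panel passed with 5 of 5 at E14 and E16 and with 3 of 5 at P7, but with 2 of 5 at P1. They are therefore called KO panel cells at every age. Inner phalangeal cells, the supporting cells around the inner HCs, were gated on Matn4, Fabp7, Slc1a3, Fgf3 and Lgr5. They passed with 3 of 3 markers kept out of the gate at E16 and P1 and with 2 of 3 at P7. Lgr5 was also high in LPsCs at E16, at 173.8 CPM against 35.0 CPM in the other cells. The study describes Lgr5 and Fgf3 as known markers of a subset of Deiters cells. Whether the inner phalangeal class holds Deiters or prosensory cells was not tested. Lateral nonsensory cells passed with 5 of 5 markers kept out at E14 and E16, 3 of 5 at P1 and 4 of 5 at P7. Roof cells had only 1 such marker, which was higher at E14, E16 and P1. Mesenchymal cells at P7 passed with 2 of 3. The 11 mesenchymal markers summed to 5510 to 6800 CPM there and to 1350 to 1378 CPM in glial cells, although Col1a1 was lower (18.5 against 59.7 CPM). A class was a range of a score: at E14, 15 of the 183 LPsCs lay within 0.1 of the threshold and 31 further cells lay as close below it. Among KO panel cells at P1, 959 of 4093 lay within 0.1 of it. Cells of no class made up 44.0 and 46.8% of a library at E14 and 34.2 to 41.9% at E16. They made up 37.3 to 50.3% at P1 and 60.5 and 49.4% at P7. These cells counted among all other cells in the comparisons below, so that group can hold cells of the tested type. Levels are given as CPM, the usual depth-scaled count, in which a gene's UMIs are divided by the cell's total before averaging over a class. The mean ± SD is over libraries.

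The annotation used here (GENCODE M21, mouse build GRCm38) places Tgfbr1 on the plus strand at chr4:47353222-47414931 and Tgfb2 on the minus strand at chr1:186622792-186705989. Tgfb1 lies at chr7:25687002-25705077 on the plus strand, and Tgfb3 at chr12:86056745-86079041, Tgfbr2 at chr9:116084293-116175360 and Tgfbr3 at chr5:107106570-107289629 on the minus strand. Tgfbr1 and Tgfb2 were the 2 members that passed in the main form of any comparison, with genes under 10 CPM left out, so the 300 bases around the RefSeq start of each (GRCm38.p6) are shown 5′ to 3′ on the strand of the gene. They lie at chr4:47352972-47353271 for Tgfbr1 and chr1:186705940-186706239 for Tgfb2. Capitals mark the matches to 4 motifs searched on both strands, the GC box GGGCGG, the TATA box TATAAA, the E-box CACGTG and the Smad element CAGAC.
Tgfbr1 promoter: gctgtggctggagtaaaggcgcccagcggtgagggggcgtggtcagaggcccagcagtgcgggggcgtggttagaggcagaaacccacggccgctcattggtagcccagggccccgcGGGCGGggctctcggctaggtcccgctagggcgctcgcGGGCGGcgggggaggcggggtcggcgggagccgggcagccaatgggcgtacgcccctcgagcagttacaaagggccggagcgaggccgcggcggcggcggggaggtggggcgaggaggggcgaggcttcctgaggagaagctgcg
Tgfb2 promoter: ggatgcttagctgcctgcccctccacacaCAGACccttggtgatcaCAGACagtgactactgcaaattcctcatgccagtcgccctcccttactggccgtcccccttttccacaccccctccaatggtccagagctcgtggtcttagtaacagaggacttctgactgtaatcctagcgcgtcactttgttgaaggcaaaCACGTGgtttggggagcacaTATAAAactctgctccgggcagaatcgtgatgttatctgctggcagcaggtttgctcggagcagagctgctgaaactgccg
The Tgfbr1 window held 34 CG dinucleotides against a median of 7 over all promoters, with GC boxes at -133 and -95 from the start and no TATA box. The Tgfb2 window held 10 CG dinucleotides, a TATA box at -31, an E-box at -51 and Smad elements at -221 and -204. Of the 32851 promoters in the RefSeq table, 35.66% held the GC box, 13.62% the TATA box, 7.15% the E-box and 49.59% the Smad element. Each match is a description of these letters and not a mapped binding site. RefSeq lists a second Tgfbr1 start inside the gene, and Tgfb3 and Tgfbr3 were not in the table.

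Tgfbr1, the type I receptor that carries the signal to the Smads, was highest in LPsCs at E14. It stood at 136 and 125 CPM in LPsCs of the 2 libraries (130.9 ± 7.71 CPM, n = 2). In all other cells of the same libraries it was at 35.1 and 38.8 CPM. The LPsC values lay well above the rest without overlap. The log2 fold change was 1.59 (SE 0.21, adjusted p = 6.22e-13 in limma with the library as a block), in a comparison in which 14.1% of all genes tested passed. Tgfbr1 is a gene that the study itself picked as a marker of this population in these libraries, so the E14 result is not independent evidence of its direction. The study also reports the gene as concentrated in LPsCs in its E16 cells. In tissue sections it reports Tgfbr1 RNA in LPsCs at E16 and in Deiters and pillar cells at P1. The directions of those results below were thus known from the study too. The other classes at E14 followed in the order HCs (74.2 ± 5.74 CPM, from 19 UMIs in all), medial prosensory cells (MPsCs; 59.5 ± 6.78), lateral nonsensory cells (38.6 ± 7.74), cells of no class (38.3 ± 3.24), interdental cells (33.5 ± 15.7), KO panel cells (31.5 ± 3.27) and roof cells (27.8 ± 9.23). The library values of LPsCs, HCs, MPsCs and lateral nonsensory cells did not overlap from one to the next, whereas those of the 5 lowest classes overlapped.

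Against MPsCs alone, at 64.3 and 54.7 CPM, LPsCs at E14 had a Tgfbr1 log2 fold change of 1.02 (SE 0.25, adjusted p = 0.00324 in limma), where 3.16% of genes passed. This comparison used the same LPsC values as the one above. The call was lost when the gates used every second marker (log2 fold change 0.55, adjusted p = 0.323) and when cells with more than 3000 genes were left out (1.06, adjusted p = 0.0555). With 2 libraries the E14 and P7 fits left 1 residual degree of freedom, and their p-values rest mainly on the spread that limma shares across genes.

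At E16 Tgfbr1 was again high in LPsCs, at 198, 299 and 177 CPM in the 3 libraries (224.7 ± 65.6). All other cells had 76.6, 59.6 and 41.6 CPM, and no library overlapped (log2 fold change 1.76, SE 0.21, adjusted p = 1.38e-05 in limma, with 10.1% of genes called). The MPsCs had nearly as much, at 283, 193 and 78.1 CPM (184.4 ± 102), and the LPsC and MPsC values overlapped. The 2 classes were not sharply separated, since the 15 LPsC markers summed to 5398 to 5982 CPM in LPsCs and to 2772 to 3284 CPM in MPsCs, and to 4269 to 4468 and 2204 to 2537 CPM at E14. MPsCs were gated on Fgf20, Jag1, Lfng, Cdkn1b and Sox2. The study treats Fgf20 as a medial marker but Cdkn1b and Sox2 as markers of both prosensory groups. MPsCs passed with 3 of 3 markers kept out of the gate at E14 and with 2 of 3 at E16. There Atoh1 was lower than in the other cells in each library (32.0 against 67.1 CPM on average). Gata3, also kept out, was higher still in lateral nonsensory cells (1143 against 732 CPM in MPsCs at E16). Whether the MPsC class was medial rather than prosensory in general was not tested. The log2 difference in Tgfbr1 between LPsCs and MPsCs was 0.40 (SE 0.28, adjusted p = 0.806 in limma, 0.409% of genes called). It was 0.85 without library 1 (adjusted p = 0.0233), so the call depended on 1 library. Cells gated as inner phalangeal cells had 124.4 ± 53.1 CPM. The remaining classes ran from lateral nonsensory cells (65.3 ± 10.3 CPM) through cells of no class (62.0 ± 20.9), interdental cells (47.1 ± 12.4), Hensen's cells (45.5 ± 12.7), KO panel cells (44.5 ± 16.6) and roof cells (42.7 ± 15.4) to HCs (27.4 ± 12.3), and each neighbour in this order overlapped with the next. Library 3 had the lowest Tgfbr1 value of the 3 in LPsCs, MPsCs, inner phalangeal cells, KO panel cells and HCs. Over all genes and cells, library 3 also stood apart. Its Pearson's r was 0.969 with library 1 and 0.976 with library 2, which had 0.991 with each other.

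The LPsC difference from all other cells was 0.17 larger at E16 than at E14 on the log2 scale (SE 0.31, adjusted p = 0.95 for the difference in limma, 0.484% of genes called), and the 2 ages could not be separated. Each age came in its own table from its own libraries, so that age and preparation cannot be told apart in any comparison between ages. Within LPsCs, the Tgfbr1 level at E16 exceeded that at E14 in every library, but the log2 fold change of 0.70 (SE 0.29, adjusted p = 0.270 in limma) did not pass, where 2.78% of genes did. The median of all genes in that age comparison was itself shifted by -0.16.

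**Figure D1:**
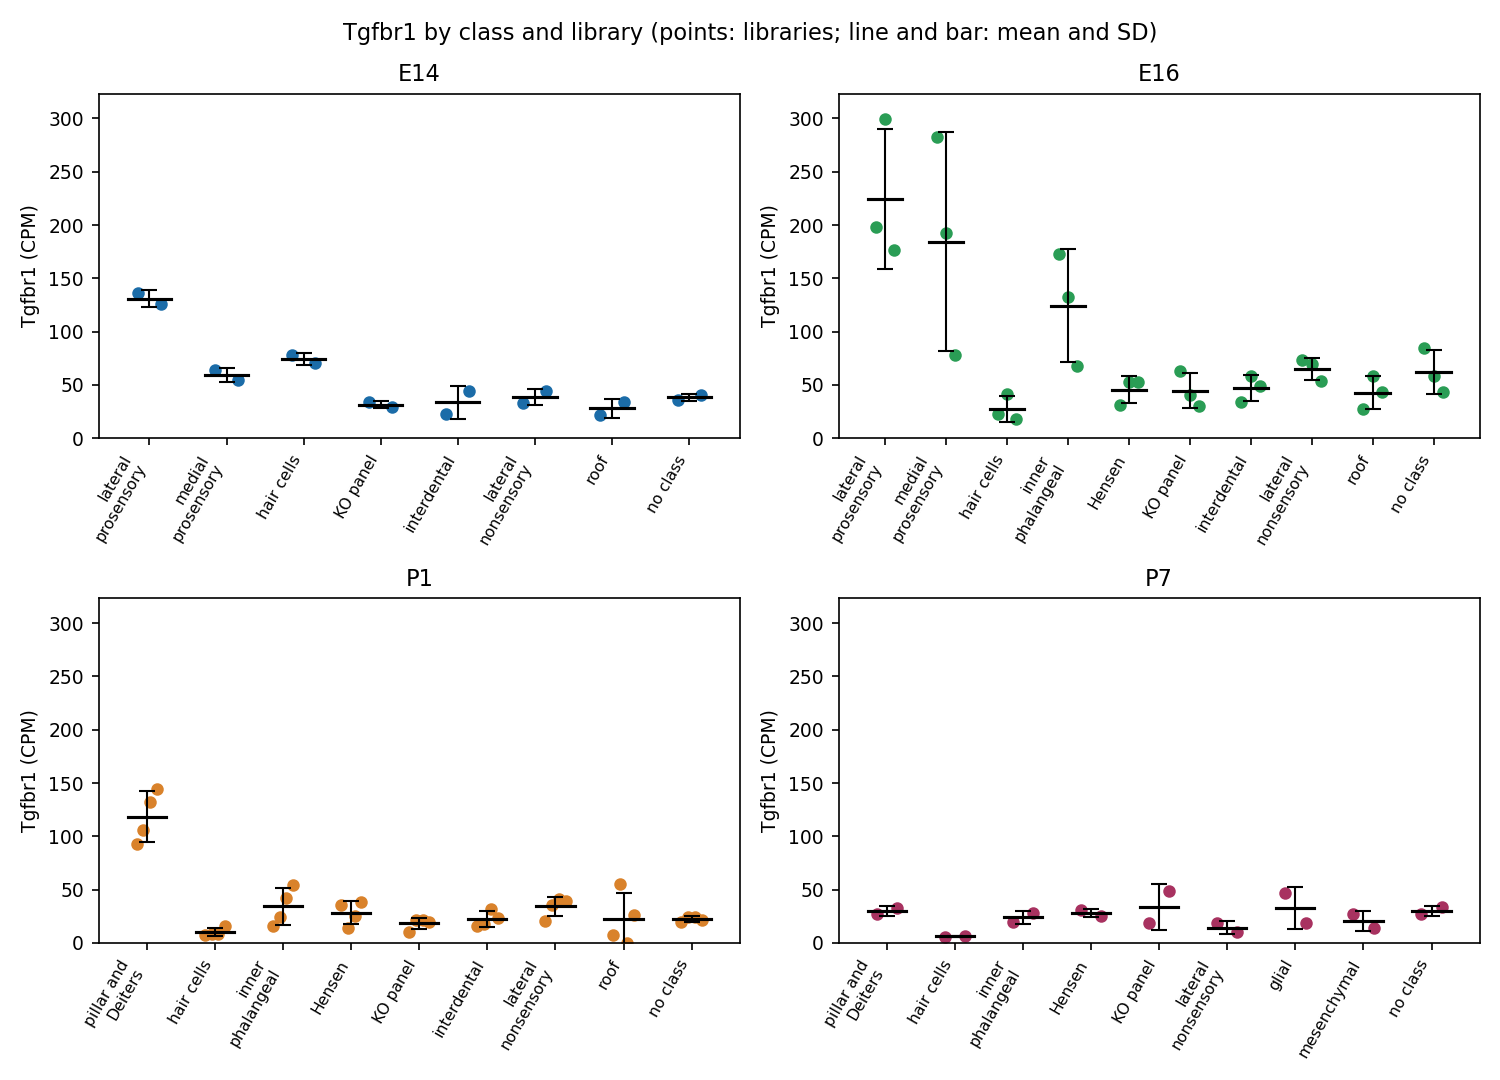
Tgfbr1 level in CPM (vertical axis, linear, same scale in the 4 panels) by class at E14, E16, P1 and P7, with 1 point per library and the mean and SD in black. LPsCs lie highest at E14 and E16, at 130.9 and 224.7 CPM on average, pillar and Deiters cells lie highest at P1 at 118.6 CPM, and no class stands high at P7.

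In HCs Tgfbr1 was low from E16 on. At E16 HCs had 22.9, 41.2 and 18.0 CPM of Tgfbr1, all below every LPsC value (log2 fold change -2.67, SE 0.25, adjusted p = 1.68e-06 in limma, with 20.6% of genes called). At P1 the 4 HC values were 7.57, 8.13, 8.60 and 15.5 CPM (9.95 ± 3.73), where the 4 pillar and Deiters values were 92.8, 105.5, 132.0 and 144.0 CPM (118.6 ± 23.5). These supporting cells lie beneath and between the HCs, and the 2 groups did not overlap. The log2 fold change was -2.69 (SE 0.15, adjusted p = 4.89e-09 in limma), in a comparison in which 59.9% of all genes passed. HCs at P1 were lower than HCs at E16 by a log2 fold change of -0.87 (SE 0.28, adjusted p = 0.0421, 16.9% called), but this call was lost in 8 of the alternatives. Leaving out P1 library 1, 2 or 3 or E16 library 1 or 2 each lost it, with values from -0.94 (adjusted p = 0.0748) to -0.62 (adjusted p = 0.207). Inner and outer HCs at P1 had 18.4 ± 14.2 and 8.03 ± 5.50 CPM, with overlapping libraries.

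At P1 pillar and Deiters cells stood apart from every other class. All other cells had 15.3, 22.1, 22.8 and 22.2 CPM of Tgfbr1, against the 92.8 to 144.0 CPM above (log2 fold change 2.06, SE 0.11, adjusted p = 1.11e-07 in limma, 39.7% of genes called). Within the class, the cells gated as Deiters cells had 102.9, 117.3, 117.2 and 123.9 CPM (115.3 ± 8.89) and those gated as inner pillar cells had 79.5, 58.7, 108.7 and 120.9 CPM (92.0 ± 28.2), so that both shared the high level and overlapped. Below them came inner phalangeal cells (34.2 ± 17.5 CPM), lateral nonsensory cells (34.2 ± 9.06), Hensen's cells (28.3 ± 10.96), cells of no class (22.4 ± 2.53), interdental cells (22.2 ± 7.36), roof cells (22.1 ± 24.4) and KO panel cells (18.3 ± 5.49), with overlapping libraries at each step. Hensen's cells, which lie lateral to the Deiters cells, differed from all other cells by 0.02 on the log2 scale (SE 0.26, adjusted p = 0.967). KO panel cells had less than all other cells in each of the 4 libraries, with 10.2 against 25.1, 21.7 against 28.5, 21.7 against 33.8 and 19.5 against 33.8 CPM. The log2 fold change was -0.53 (SE 0.09, adjusted p = 0.00137, 32% of genes called). They also had less in each of the 3 libraries at E16 (log2 fold change -0.62, SE 0.13, adjusted p = 0.0110, 10.2% called). All other cells here included the classes high in Tgfbr1, pillar and Deiters cells at P1 and LPsCs and MPsCs at E16. The part of those classes in these differences was not tested. The E16 call was lost without library 2 (-0.51, adjusted p = 0.112), without the filter on low values (adjusted p = 0.0670) and with every second gate marker (adjusted p = 0.121). With no library block neither passed (adjusted p = 0.240 at P1 and 0.429 at E16).

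By P7 the high level in pillar and Deiters cells had gone. The 2 libraries had 26.8 and 33.0 CPM of Tgfbr1 (29.9 ± 4.42), below all 4 values at P1. The log2 fold change from P1 to P7 was -1.67 (SE 0.29, adjusted p = 0.00117 in limma, with 11.4% of genes called). All other cells at P7 had 24.1 and 30.5 CPM, and the log2 difference of 0.10 did not pass (SE 0.26, adjusted p = 0.811, 31.2% called). The test of the change itself gave a P7 minus P1 difference of -1.96 in the pillar and Deiters contrast (SE 0.20, adjusted p = 3.54e-05, with 26.3% of genes called). HCs were the lowest class present in both P7 libraries, at 5.72 and 6.65 CPM, and lay below pillar and Deiters cells without overlap (log2 fold change -1.30, SE 0.35, adjusted p = 0.00146, 51% called). This gap was smaller than at P1 by 1.39 on the log2 scale (SE 0.29, adjusted p = 0.00249, 23.5% called). The change in HCs between P1 and P7 was not tested in the main form, since the mean in those libraries was under the filter of 10 CPM. KO panel cells (33.6 ± 21.5 CPM), glial cells (32.7 ± 19.8), Hensen's cells (28.01 ± 4.01), inner phalangeal cells (24.0 ± 6.24) and mesenchymal cells (20.5 ± 9.43) overlapped with the pillar and Deiters values.

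Shares of cells with at least 1 UMI gave the same direction in the pairs of classes named here. For these shares, cells with at least 1500 UMIs were thinned to that number. Tgfbr1 was then seen in 18.0% of LPsCs at E14 (exact 95% interval 12.8 to 24.4%) and in 4.23% of roof cells (2.57 to 6.53%). At E16 it was seen in 28.6% of LPsCs (23.5 to 34.1%) and 4.50% of HCs (2.91 to 6.63%). At P1 the shares were 16.4% of pillar and Deiters cells (14.04 to 19.03%) and 1.31% of HCs (0.698 to 2.23%). At P7 they were 6.41% (3.12 to 11.5%) and 0.855% (0.104 to 3.05%). With all UMIs the P1 shares were 42.5% and 6.54%, at median depths of 5642 and 6581 UMIs. These intervals cover counting error only. Markers of the pillar and Deiters panel were also found in other classes. Its 16 markers summed to 15407 to 17417 CPM in that class at P1. In HCs they summed to 2008 to 2733 CPM and in KO panel cells to 461 to 719 CPM. At P7 they summed to 3630 to 4221 CPM in HCs and 2608 to 2721 CPM in KO panel cells. The 16 HC markers summed to 355 to 525 CPM in pillar and Deiters cells at P1 and 949 to 973 CPM at P7. The study reports Fgfr3 and Prox1, both in the pillar and Deiters panel, in outer HCs at E14 and E16. The part of RNA shared between droplets in the low HC values of Tgfbr1 and Tgfb2 was not tested. Its part in their smaller gaps at P7 was not tested either.

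The ligand gene Tgfb2 was detected in every class, with 17596, 22305, 52173 and 3706 UMIs in the 4 ages in order. It was not concentrated in prosensory cells. At E14 KO panel cells were highest, at 999 and 998 CPM, and all other cells had 643 and 679 CPM without overlap (log2 fold change 0.59, SE 0.06, adjusted p = 2.04e-22 in limma, 16% of genes called). Lateral nonsensory cells (864.9 ± 86.8 CPM), interdental cells (846.2 ± 40.2), MPsCs (777.1 ± 51.4), cells of no class (705.7 ± 31.3), LPsCs (589.3 ± 56.5), HCs (384.3 ± 78.4) and roof cells (57.2 ± 2.29) followed. From cells of no class downwards the libraries of neighbouring classes did not overlap, and roof cells, at 58.8 and 55.6 CPM, were far below all others.

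LPsCs, the class richest in Tgfbr1, had less Tgfb2 at E14 than MPsCs and all other cells, but more than HCs at E14 and E16. At E14 they had 549 and 629 CPM, where MPsCs had 741 and 813 CPM (log2 fold change -0.40, SE 0.12, adjusted p = 0.0352 in limma) and all other cells 720 and 750 CPM (-0.32, SE 0.09, adjusted p = 0.00423). Without the filter on low values both missed the threshold (adjusted p = 0.0759 and 0.0512), as did the first without cells over 3000 genes (adjusted p = 0.215). With no library block both were also lost (adjusted p = 0.424 and 0.208). At E16 they had 620, 762 and 701 CPM, below all other cells in each library, which had 952, 965 and 743 CPM, although the ranges overlapped (-0.34, SE 0.10, adjusted p = 0.0359). The E16 call was not stable, since 7 alternatives lost it, among them leaving out library 1 (-0.21, adjusted p = 0.194) or library 2 (-0.35, adjusted p = 0.184). Against MPsCs at E16 (1022.9 ± 97.5 CPM) the log2 fold change of -0.55 did not pass (adjusted p = 0.0786), but it did without library 1 (-0.45, adjusted p = 0.0301) and without library 3 (-0.64, adjusted p = 0.0324). Between the 2 ages Tgfb2 in LPsCs did not pass (log2 fold change 0.23, SE 0.21, adjusted p = 0.646).

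At E16 and P1 the highest Tgfb2 levels lay in the cells gated as inner phalangeal and Hensen's cells. At E16 inner phalangeal cells had 1402, 1702 and 1167 CPM (1423.8 ± 268) and Hensen's cells 1618, 1581 and 896 CPM (1365.3 ± 407). Interdental cells (1073.2 ± 247 CPM), KO panel cells (1027.4 ± 137), MPsCs (1022.9 ± 97.5), cells of no class (941.8 ± 169), lateral nonsensory cells (851.8 ± 120) and LPsCs (694.2 ± 71.6) came next with overlapping neighbours. Roof cells (183.6 ± 52.6) and HCs (174.7 ± 73.6) lay below every one of these. At P1 Hensen's cells had 1450, 1004, 1241 and 1310 CPM and inner phalangeal cells 1057, 1160, 1260 and 1494 CPM. Both classes lay above every library of every other class shown. Hensen's cells exceeded all other cells, at 663 to 752 CPM, by a log2 fold change of 0.81 (SE 0.10, adjusted p = 1.25e-05 in limma, 15.4% of genes called). The inner phalangeal class was not tested against the rest.

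**Figure D2:**
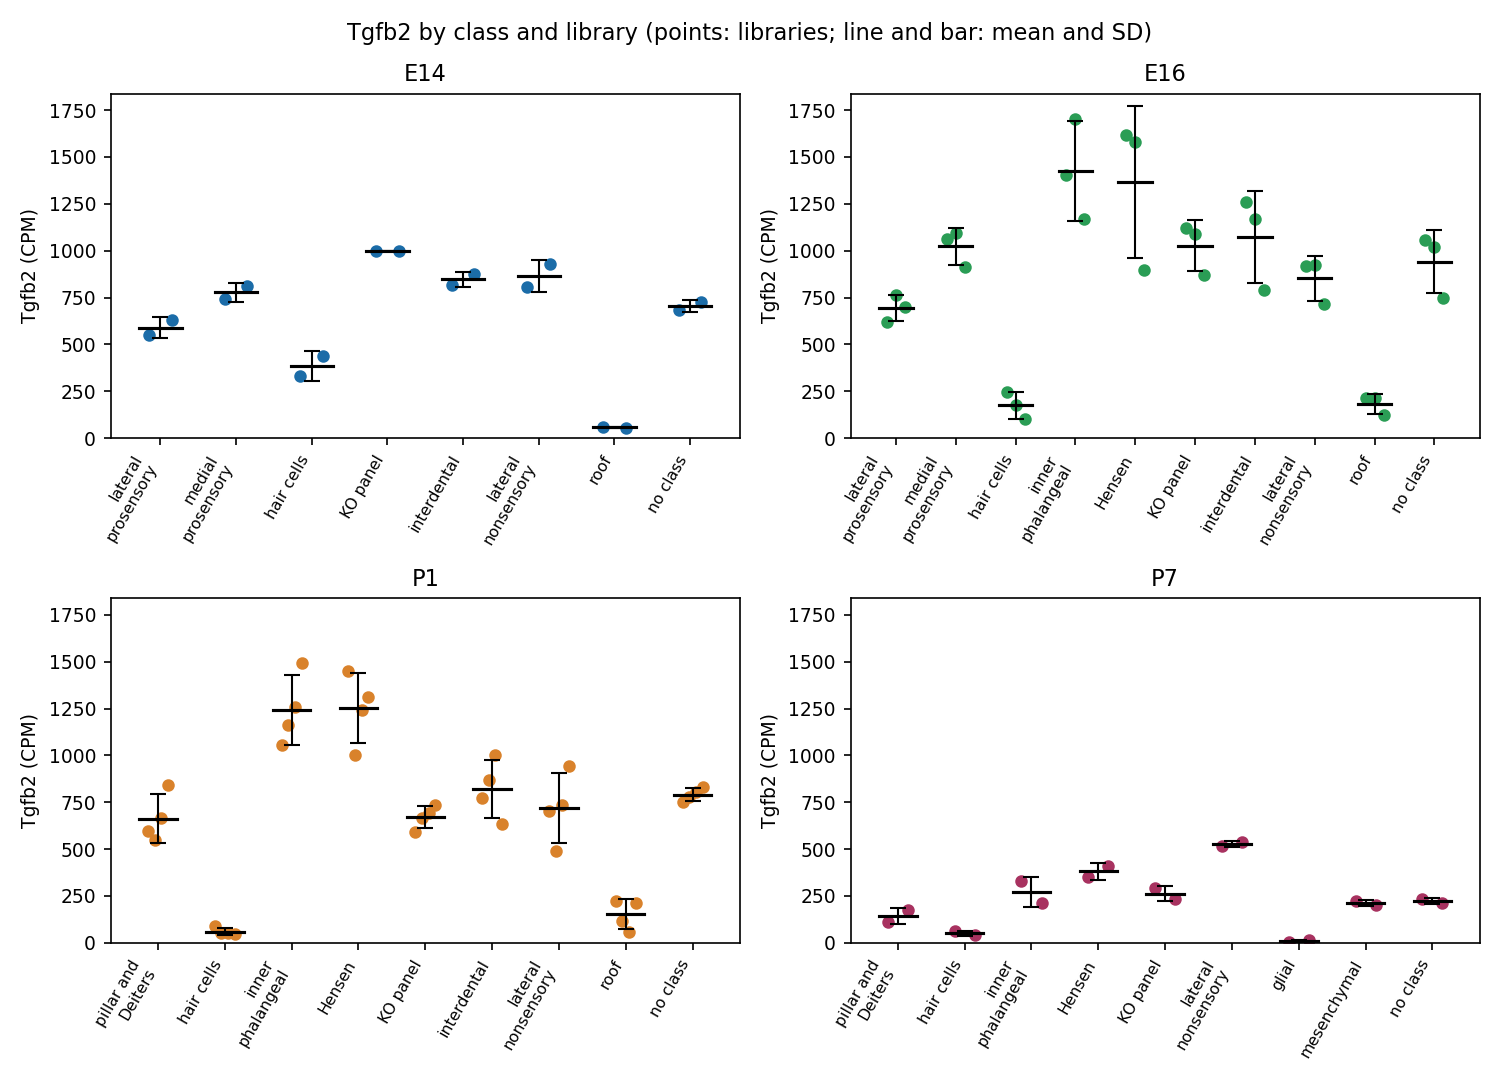
Tgfb2 level in CPM (vertical axis, linear, same scale in the 4 panels) by class at each age, with 1 point per library and the mean and SD in black. HCs and roof cells are low at E16 and P1, Hensen's and inner phalangeal cells are highest at P1 (1251.1 and 1242.8 CPM), and lateral nonsensory cells (526.7 CPM, from 22 cells) and Hensen's cells (381.1 CPM) are highest at P7.

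HCs had little Tgfb2 at any age after E14. At E16 they had 248, 176 and 100 CPM, each below all LPsC values (log2 fold change -2.01, SE 0.21, adjusted p = 3.68e-06 in limma). At P1 they had 88.7, 52.3, 51.1 and 48.1 CPM (60.03 ± 19.2), where pillar and Deiters cells had 595, 549, 664 and 843 CPM (662.8 ± 129). The groups were far apart (log2 fold change -3.28, SE 0.16, adjusted p = 1.30e-09). HCs at P1 differed from HCs at E16 by -1.35 (SE 0.30, adjusted p = 0.00503). HCs at P7, with 61.2 and 42.2 CPM, overlapped with those at P1 (-0.16, SE 0.30, adjusted p = 0.744, with 20.6% of genes called). After thinning, 8.05% of HCs (6.43 to 9.92%) and 63.0% of pillar and Deiters cells (59.7 to 66.2%) at P1 had a Tgfb2 UMI. Inner and outer HCs at P1 had 61.6 ± 18.7 and 59.2 ± 18.0 CPM and were not tested against each other.

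Tgfb2 did not set pillar and Deiters cells apart at P1. Their values overlapped with those of all other cells (log2 fold change -0.12, SE 0.08, adjusted p = 0.248), although without library 4, the only one in which they were higher, the fold change of -0.22 passed (adjusted p = 0.0394). Cells gated as Deiters cells had 724.6 ± 104 CPM and inner pillar cells 529.6 ± 138 CPM, with the Deiters value higher in each of the 4 libraries. KO panel cells at P1 had 591, 665, 691 and 735 CPM and also did not pass against all other cells (-0.12, SE 0.04, adjusted p = 0.0586). Their contrast with other cells changed from E16 to P1 by -0.42 (SE 0.07, adjusted p = 0.00701 for the difference in limma, 3.82% of genes called). In the comparison of KO panel cells between ages, Tgfb2 did not pass for E16 against E14 (0.03, SE 0.17, adjusted p = 0.923, 9.69% of genes called) or for P1 against E16 (-0.60, SE 0.20, adjusted p = 0.0934, 6.58% called). Tgfbr1 did not pass for P1 against E16 either (-0.93, SE 0.26, adjusted p = 0.0544), but it did without E16 library 3 (-1.12, adjusted p = 0.0323). At E16 the KO panel values of 1123, 1088 and 871 CPM each exceeded those of the other cells in the same library, at 900, 915 and 691 CPM (log2 fold change 0.30, SE 0.05, adjusted p = 0.00219), a call lost with no library block (adjusted p = 0.619). From E14 to E16 that contrast changed by -0.29 (SE 0.07, adjusted p = 0.0819 for the difference, 1.79% of genes called).

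Over all cells Tgfb2 stood at 711 ± 34.9 CPM at P1 and at 209.0 ± 28.04 CPM at P7, a difference that was tested within classes. In pillar and Deiters cells it dropped to 111 and 174 CPM, below all 4 P1 values (log2 fold change -2.15, SE 0.27, adjusted p = 9.62e-05 in limma). In KO panel cells it dropped to 291 and 234 CPM (-1.32, SE 0.22, adjusted p = 0.00207, 18.8% of genes called), a call lost without P7 library 5 (-1.17, adjusted p = 0.0582). Among classes present in both P7 libraries, the order ran from lateral nonsensory cells (526.7 ± 15.1 CPM, from 22 cells) through Hensen's cells (381.1 ± 43.2), inner phalangeal cells (271.7 ± 81.6), KO panel cells (262.3 ± 40.3), mesenchymal cells (211.6 ± 16.0), pillar and Deiters cells and HCs (51.7 ± 13.5) to glial cells, at 5.45 and 15.4 CPM. The 150 glial cells held 16 Tgfb2 UMIs in all.

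HCs at P7 remained below pillar and Deiters cells for Tgfb2 without overlap (log2 fold change -1.29, SE 0.26, adjusted p = 3.90e-05), but the gap was 1.99 smaller on the log2 scale than at P1 (SE 0.33, adjusted p = 0.000424 for the difference). The P7 fold change was -1.82 in library 5 alone and -0.77 in library 4 alone, which moves it by over 1.5 times and leaves no test. Markers of each class were also higher in the other class at P7 than at P1, as given above. Their part in the smaller gap was not tested. Pillar and Deiters cells fell below all other cells, at 236 and 193 CPM (-0.58, SE 0.19, adjusted p = 0.0358), a value of -1.02 in library 4 alone and -0.14 in library 5 alone, and one that missed the threshold with recovered UMIs summed (adjusted p = 0.0563), with every second gate marker (adjusted p = 0.0661), with no filter (adjusted p = 0.0720) or with no library block (adjusted p = 0.146). KO panel cells rose above the rest again, at 291 and 234 against 217 and 183 CPM (0.37, SE 0.11, adjusted p = 0.0115, 14.6% of genes called). The P7 minus P1 difference in that contrast was 0.49 (SE 0.08, adjusted p = 0.00353, 14.6% called). All other cells were not the same mix at the 2 ages. Cells gated on the glial panel made up 0.092 to 0.357% of a library at P1 and 2.31 and 6.80% at P7. They passed with 3 of 3 markers kept out of the gate at P7 but with 0 of 3 at P1, so the P1 cells cannot be called glial. Mesenchymal cells, of which none were gated at P1, made up 2.93 and 8.05% at P7. The part of this mix in the differences between P1 and P7 was not tested. The KO panel call at P7 was lost under stricter gates (0.22, adjusted p = 0.390), with every second marker (0.22, adjusted p = 0.378) and with no library block (adjusted p = 0.372).

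**Figure D3:**
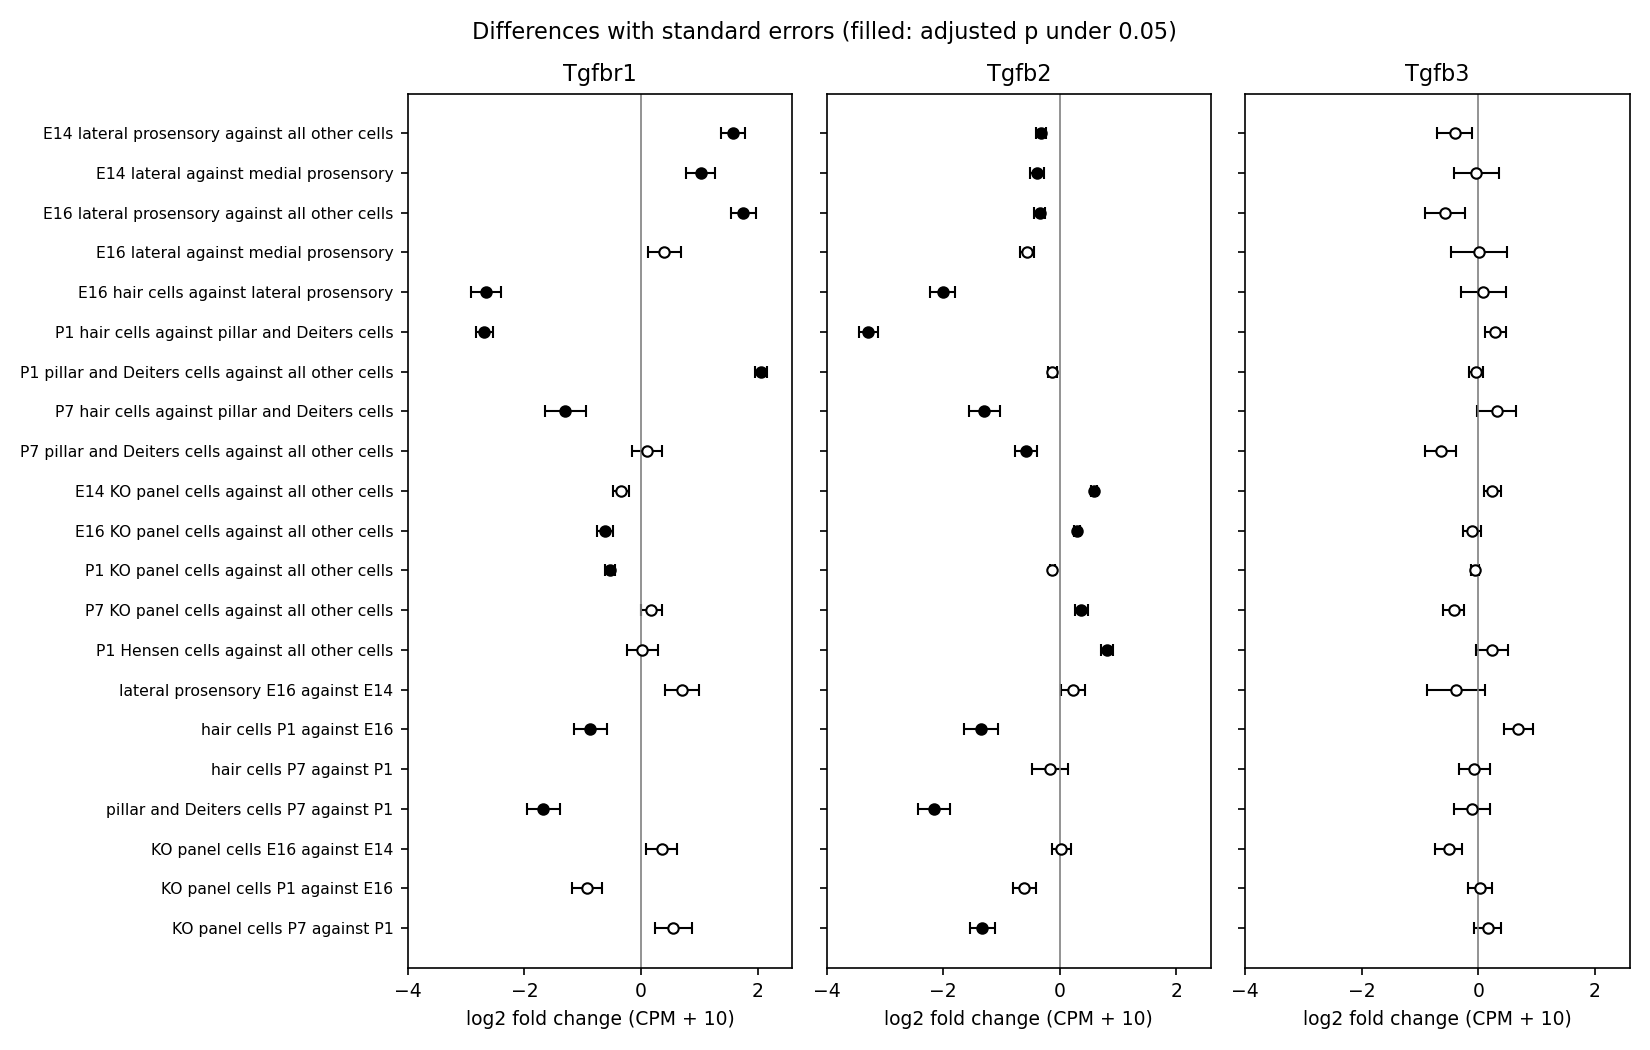
Log2 fold changes of Tgfbr1, Tgfb2 and Tgfb3 (horizontal axis, on the scale of CPM plus 10) in the 21 comparisons, with bars for the standard error and filled points for an adjusted p under 0.05. Tgfbr1 ranges from -2.69 in HCs to 2.06 in pillar and Deiters cells at P1, Tgfb2 reaches -3.28 in HCs at P1, and no Tgfb3 point is filled.

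The 4 remaining members were weak in the epithelium. Tgfb3, the third ligand, was detected at 11.9 to 42.2 CPM in the main epithelial classes of every age and did not pass in the main form of any of the 21 comparisons. The nearest were HCs at P1 against E16 (27.4 ± 3.60 against 13.2 ± 2.12 CPM, log2 fold change 0.69, adjusted p = 0.0692) and pillar and Deiters cells against all other cells at P7 (17.3 and 19.6 against a mean of 34.5 CPM, -0.65, adjusted p = 0.0812). The first passed with every second gate marker (0.75, adjusted p = 0.0470), and the second passed with recovered UMIs summed (-0.64, adjusted p = 0.0473), stricter gates (-0.76, adjusted p = 0.0481) and looser gates (-0.68, adjusted p = 0.0493). At P7 mesenchymal cells held the most Tgfb3, with 86.8 and 122.1 CPM (104.5 ± 25.0, from 80 UMIs). After thinning, 17.7% of them had a UMI (12.4 to 24.0%), against 2.67% of glial cells (0.731 to 6.69%) at median depths of 3775 and 3311.5 UMIs.

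Tgfb1, Tgfbr2 and Tgfbr3 stayed under a mean of 10 CPM in every comparison and were tested only in the alternative with no filter on low values. Calls there rested on few UMIs and no direction is read from them: in KO panel cells at E14 on 5 Tgfbr2, 2 Tgfb1 and 1 Tgfbr3 UMIs in 1065 cells, in LPsCs at E14 on 0 Tgfb1 UMIs in 183 cells, and in pillar and Deiters cells at P7 on 0 Tgfbr3 UMIs in 156 cells. The other such call was Tgfb1 in KO panel cells, from 1.59 CPM at P1 (36 UMIs in 4093 cells) to 9.38 CPM at P7 (27 UMIs in 566 cells; adjusted p = 0.00821, 10.7% of genes called). In the main form 3 of the 6 members entered 20 of the comparisons and 2 entered the comparison of HCs between P1 and P7. Tgfb1, the ligand best known from immune and stromal cells, averaged 1.496, 1.40 and 1.89 CPM over all cells at E14, E16 and P1 and 9.35 ± 2.30 CPM at P7. The highest class was again the mesenchymal one at P7, with 14.2 and 22.7 CPM. Only 2 cells at P1 and 1 at P7 were gated as immune, too few to summarise, and the 11 immune markers summed to between 0 and 51.3 CPM in each of the other classes checked, the highest being HCs at P1.

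Tgfbr2, the type II receptor that Tgfbr1 works with, was detected at 4.75 ± 0.379, 3.60 ± 0.853, 2.25 ± 0.768 and 3.99 ± 3.89 CPM over all cells at the 4 ages in order. In the classes richest in Tgfbr1, LPsCs had 3.10 and 9.10 CPM of Tgfbr2 at E14 (from 5 UMIs) and 1.34 ± 2.33 CPM at E16, and pillar and Deiters cells had 2.06 ± 1.60 CPM at P1. Among classes of at least 50 cells, the highest means were in Hensen's cells at E16, with 18.0, 51.5 and 12.3 CPM from only 8 UMIs, and in mesenchymal cells at P7, whose 2 libraries disagreed at 3.41 and 45.0 CPM. Roof cells at E16 (14.1 ± 5.82) and lateral nonsensory cells at P1 (12.4 ± 10.0) came next. At these counts no order among the classes could be read.

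Tgfbr3, the betaglycan co-receptor, was at or near 0 UMIs in HCs and in pillar and Deiters cells and was highest in P7 glial cells, at 36.5 and 49.6 CPM (43.0 ± 9.28, from 24 UMIs). It had 0 UMIs in 234 HCs and 0 in 156 pillar and Deiters cells at P7, which after thinning allows shares of up to 1.56% and 2.34%, against 4% of glial cells (1.48 to 8.50%). The glial interval overlaps both limits, which hold for cells with a UMI and not for cells that express the gene. The glial class was defined by myelin genes, whose 11 markers summed to 42621 to 45134 CPM there and to 54.2 to 195 CPM in HCs, pillar and Deiters, KO panel, Hensen's and mesenchymal cells at P7. At P1 the highest Tgfbr3 class was the roof, with 20.0, 6.56, 0 and 37.4 CPM over the 4 libraries.

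**Figure D4:**
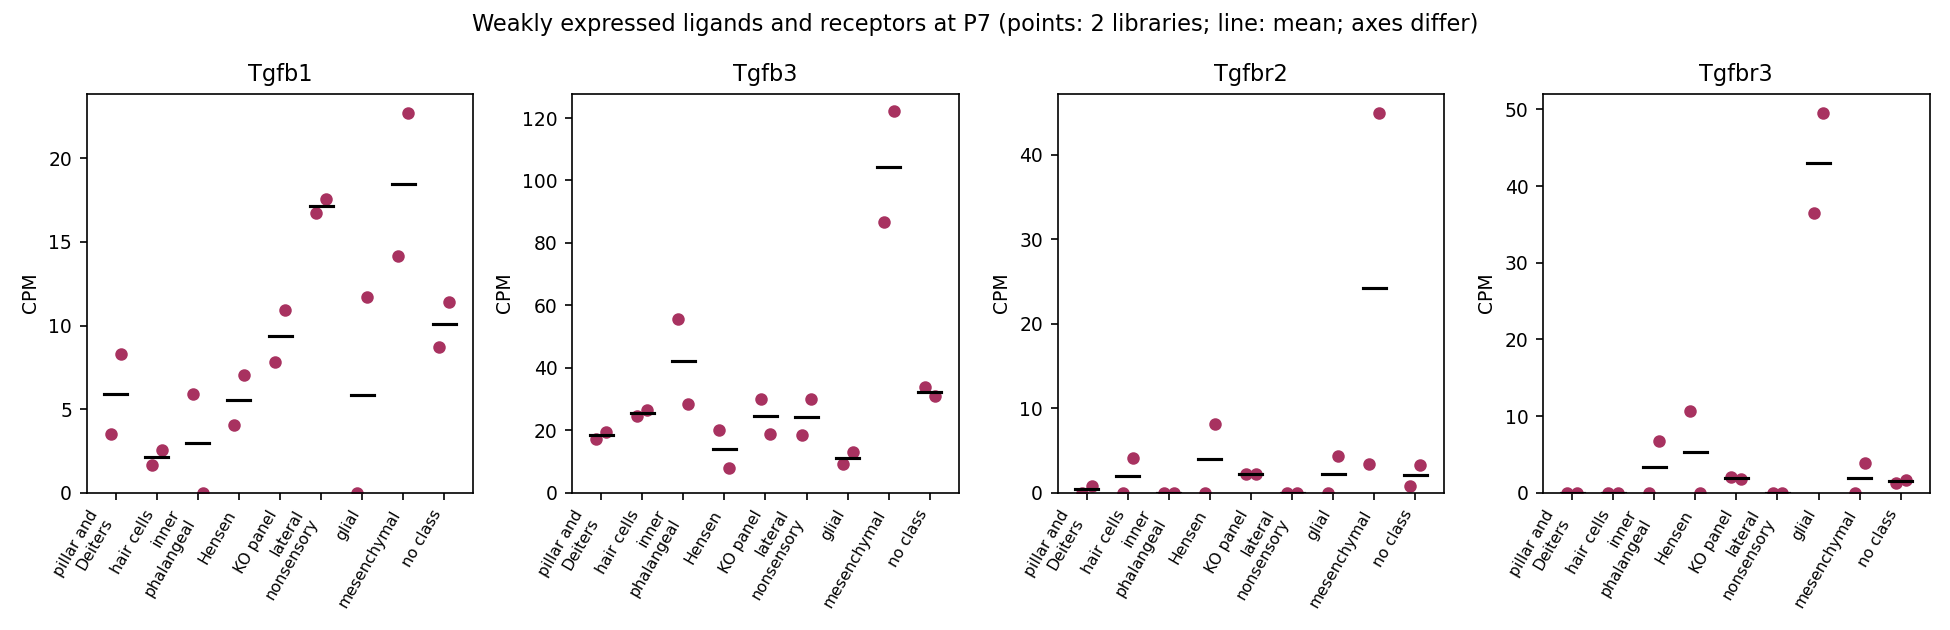
Tgfb1, Tgfb3, Tgfbr2 and Tgfbr3 levels in CPM (vertical axes, linear, differing between panels) by class at P7, with 1 point per library and a line for the mean of the 2. Mesenchymal cells are highest for Tgfb1 (18.4 CPM) and Tgfb3 (104.5 CPM), the mesenchymal Tgfbr2 libraries lie apart at 3.41 and 45.0 CPM, and glial cells are highest for Tgfbr3 (43.0 CPM).

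Other genes of the pathway were taken from a list of 49. The list comprised genes of ligand latency and activation, related receptors, Smad transducers, inhibitors and targets. Of these, 1 (Ccn2) was not found under that symbol while its older symbol Ctgf was. In LPsCs at E14, 5 of the 32 tested were higher than in all other cells and 4 were lower, a share of 28.1% against 14.1% of all genes. Fkbp1a, which encodes the immunophilin FKBP12 that binds type I receptors, was higher (1351 against 507 CPM, log2 fold change 1.39, adjusted p = 3.23e-61 in limma). Ltbp4, a latent TGF-β binding protein, was lower (5.55 against 32.8 CPM, -1.46, adjusted p = 5.86e-05 in limma). It was similarly low in HCs (3.51 CPM), lateral nonsensory cells (5.14 CPM) and roof cells (6.32 CPM). It was highest in interdental cells (148.6 CPM) and KO panel cells (41.3 CPM). None of the 4 genes listed as Smad transducers passed. They were Smad2, Smad3, Smad4 and Zfyve9, the last of which encodes an anchor protein for Smads and not a Smad. Dcn, encoding decorin, was also lower (-2.20). It was a marker of the KO panel, but that panel chose neither the LPsCs nor the cells they were compared with.

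In HCs at P1, 16 of the 28 pathway genes tested were lower than in pillar and Deiters cells, 3 were higher and 67.9% passed, against 59.9% of all genes. Their median log2 fold change was -0.79, against 0.06 over all genes. By role, 5 of 7 latency and activation genes were lower and 1 was higher, 6 of 11 inhibitors were lower and 1 was higher, and 3 of 4 targets were lower. Of the 3 tested genes listed as Smad transducers 1 was lower and 1 higher, with a median of 0.30. Zfyve9, which is not a Smad, was among these 3 (44.2 against 35.9 CPM). Of 3 related receptors 1 was lower, with a median of -0.04. Thbs1, the thrombospondin that releases latent TGF-β, had 13.9 CPM in HCs and 382.9 CPM in pillar and Deiters cells (log2 fold change -3.93, SE 0.18, adjusted p = 6.32e-10). Bambi, a pseudoreceptor that dampens signalling, had 8.62 against 202.6 CPM (-3.46, SE 0.19, adjusted p = 4.08e-09). Ctgf, a classical target, had 16.1 against 195.4 CPM (-2.75, SE 0.27, adjusted p = 1.15e-06). At E16 Thbs1 (28.6 against 299.9 CPM, -3.11), the corepressor gene Tgif1 (31.4 against 221.3 CPM, -2.48) and Bambi (16.6 against 95.1 CPM, -2.01) were already lower in HCs than in LPsCs, among 7 of 26 that were lower and 2 that were higher (34.6% against 20.6% of all genes).

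Pillar and Deiters cells at P1 had 12 of 30 pathway genes higher and 8 lower than all other cells (66.7% against 39.7% of all genes). Thbs1 (382.9 against 93.9 CPM, log2 fold change 1.91) and Fkbp1a (2019 against 505.5 CPM, 1.98) were among those higher. Dcn was lower (64.0 against 752.0 CPM, -3.43). Hensen's cells at P1 were also high in Fkbp1a (2118 against 579.2 CPM in all other cells, 1.86). In pillar and Deiters cells at P7, 7 of 29 tested were lower than at P1 and 3 were higher (34.5% against 11.4% of all genes). Those lower included Ctgf (14.7 against 195.4 CPM, -3.02, adjusted p = 0.00234), Thbs1 (81.7 against 382.9 CPM, -1.99, adjusted p = 0.00341) and the activin receptor gene Acvr2b (6.01 against 63.7 CPM, -2.04, adjusted p = 0.00548). In KO panel cells Ctgf fell from 376.3 CPM at P1 to 10.7 CPM at P7 (-3.94, adjusted p = 0.000988) and the fibronectin gene Fn1 from 110.4 to 1.24 CPM (-3.32, adjusted p = 0.000225). The cell-cycle inhibitor gene Cdkn1a, also a TGF-β target, rose from 42.9 to 751.6 CPM (3.93, adjusted p = 7.52e-05). Cdkn1a also rose in pillar and Deiters cells, from 156.1 to 572.5 CPM (1.85, adjusted p = 0.000628), and cells of no class had 44.8 CPM at P1 and 779.5 CPM at P7. The immediate-early gene Junb, likewise a target, rose in KO panel cells (706.8 to 1580 CPM, 1.14, adjusted p = 0.00674) and in pillar and Deiters cells (238.6 to 442.6 CPM, 0.88, adjusted p = 0.0393). In KO panel cells at P7 against P1, 2 of the 5 targets tested were higher and 2 lower. They were among 6 of 29 pathway genes that were higher and 4 that were lower (34.5% against 18.8% of all genes).

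**Figure D5:**
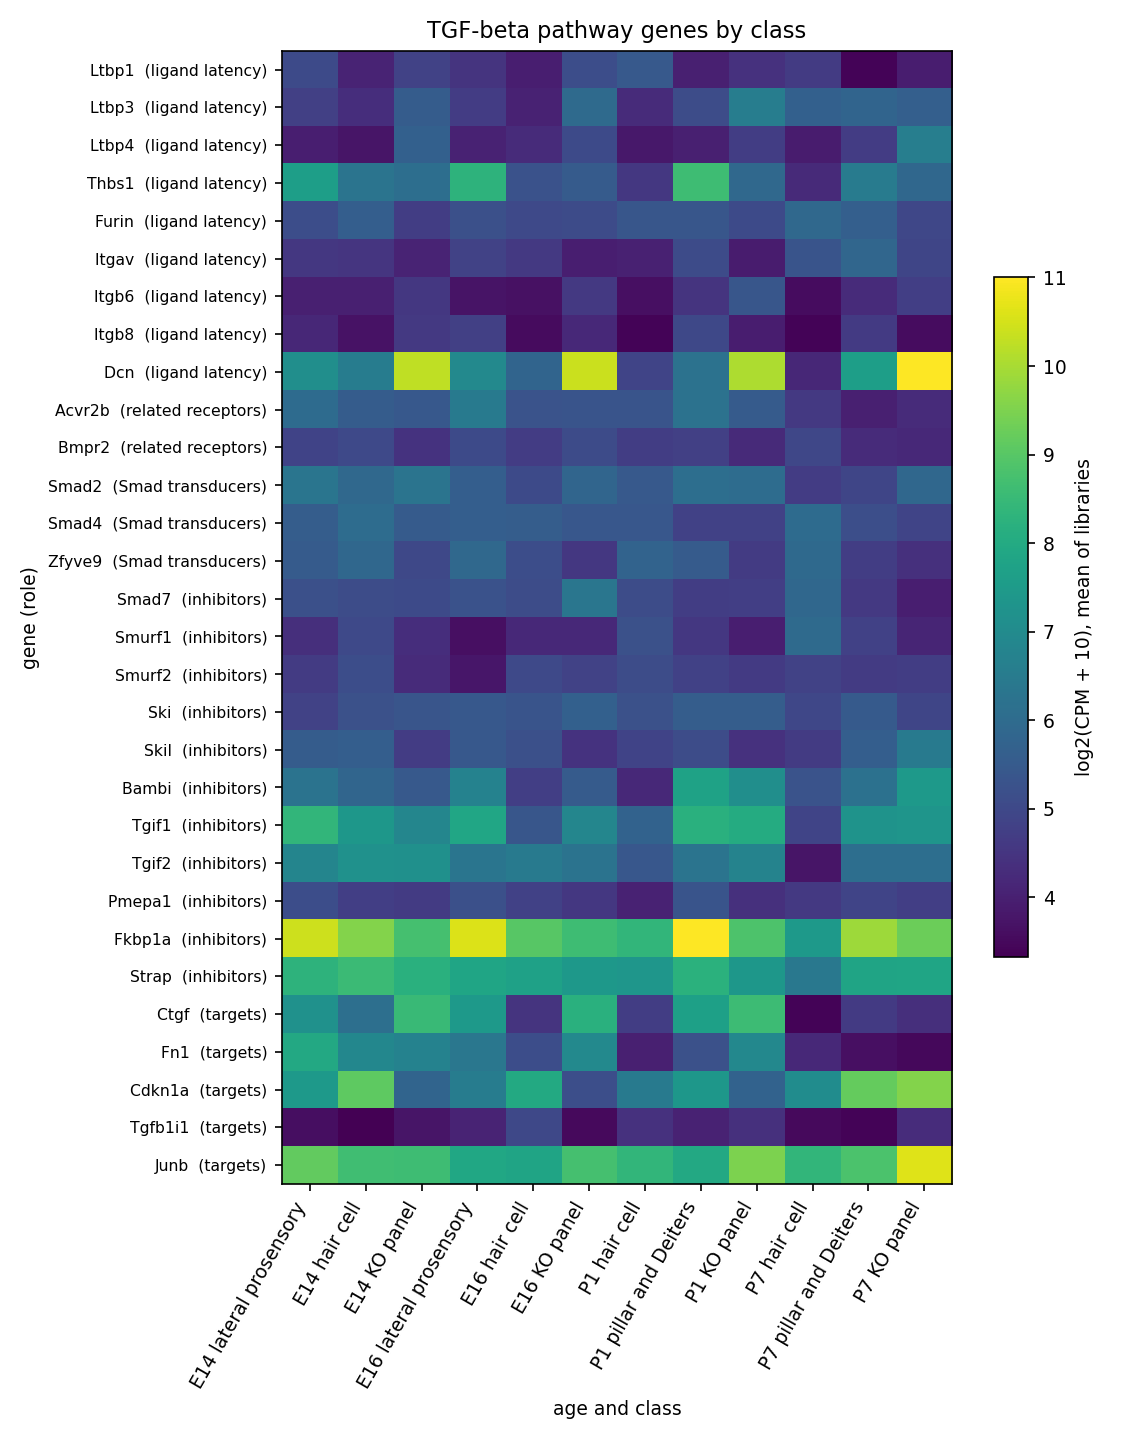
Levels of the pathway genes that reach 20 CPM in at least 1 class shown (rows, with the role of each) in LPsCs, HCs, pillar and Deiters cells and KO panel cells at each age (columns), as log2 of the mean CPM plus 10 (colour). Thbs1 and Bambi are dark in HCs at P1 (13.9 and 8.62 CPM) and bright in pillar and Deiters cells (382.9 and 202.6 CPM).

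Genes whose class means most resembled those of a member were sought over 36 class and age means among 11827 genes, as a description only, since these means share libraries and depth. Tgfbr1 was most like Tram2 (Pearson's r = 0.82), Acss3 (0.81), Gm266 (0.80), Ano2 (0.79) and Sox21 (0.79). For Tgfb2 the closest were Cd24a (r = 0.80), Irx5 (0.80), Airn (0.80), Ctgf (0.79) and Sox9 (0.78). Tgfb3 followed Htra1 (0.82), and Tgfbr3 followed Hepacam (0.88), Rab7b (0.84) and Prox2 (0.82), with both of these lists led by 1 class, the mesenchymal and the glial one at P7. Between members, Tgfbr1 and Tgfb2 had r = 0.45 and Tgfb2 and Tgfbr3 had r = -0.55.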

How the data were processed

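Single-cell libraries were made from cochlear epithelium of CD1 mice at 4 ages. The authors aligned and counted reads with Cell Ranger 2.1.1 against mm10, and deposited 1 table per age of natural log values from Seurat 2.0, ln(1 + 10000 × the share of a cell's UMIs). Every cell summed to 10000 after reversal, and whole UMIs were recovered for 100% of values above 0 within a tolerance of 2%. All deposited cells were kept, including those over 3000 genes, a number that enters the study's stated filter together with a UMI limit. Here cells were scored as the mean of capped marker z-scores, a class needed a score of 1 and a lead of 0.25 over the next, and KO panel cells a score of 0.3. Score thresholds were set after marker scores, not member values, had been seen. CPM were averaged per class and library where at least 5 cells were present, and log2(CPM + 10) was tested with limma 3.58.1 (R 4.3.3) with a mean trend, two-sided, with Benjamini-Hochberg adjustment over genes of at least 10 CPM and a threshold of 0.05. The library was a block within an age and no block was used between ages. Fits were tested on simulated data. Doublets were sought with Scrublet (scanpy 1.11.5, expected rate 0.06), which marked 0.036% to 2.588% of a library and under 0.5% in 6 of 11. Whether it missed doublets there or few were present was not tested. No cell was removed in the main values. Libraries of 1 age shared 5 to 27 cell barcodes a pair. Per the study's methods, replicates were separate collections, each pooled from 1 litter. Within an age p-values rest on how the class difference varied between libraries, and between ages on how levels varied between libraries. Both also use the spread that limma shares across genes. Not every member result of every comparison is printed. Pathway genes given with a fold change were chosen from those past the threshold. They were not always the 3 largest changes, and for some comparisons no pathway gene is named. The members and lists were chosen with earlier results of these data known, and marker panels came largely from the study's own lists. Replicate numbers did not pair libraries of different ages, with correlations of -0.195 to 0.06 between same-numbered libraries.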

Additional observations from a re-analysis of the deposited data

Results flagged for a closer look

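In groups of 4 libraries at P1, 6 of 84 held 1 library far from the other 3. For separate groups of normal values the cut would mark about 1 in 20. That rate may not hold here, since the Tgfbr2 and Tgfbr3 values are near 0 and inner pillar cells belong to the pillar and Deiters class. Tgfb2 in HCs was 88.7 CPM in library 1 against 48.1 to 52.3 CPM in the others. Tgfbr1 in HCs was 15.5 CPM in library 4 against 7.57 to 8.60 CPM. Tgfbr2 in HCs was 0 CPM in library 4 against 1.43 to 1.55 CPM. Tgfbr3 was 6.35 CPM in inner pillar cells of library 4 against 0, 3.75 CPM in pillar and Deiters cells of library 4 against 0 to 0.628 CPM, and 0.98 CPM in interdental cells of library 2 against 3.60 to 4.03 CPM. Over all genes and cells, library 4 had a Pearson's r of 0.944 to 0.967 with the other P1 libraries, which had 0.970 to 0.993 with each other.

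A difference between classes changed with age in 5 cases, each tested as a difference of differences in limma on the log2 scale. The gap between HCs and pillar and Deiters cells was 1.99 smaller at P7 than at P1 for Tgfb2 and 1.39 smaller for Tgfbr1. For Tgfbr1, pillar and Deiters cells against all other cells changed by -1.96 from P1 to P7. The contrast of KO panel cells with all other cells changed for Tgfb2 by -0.42 from E16 to P1 and by 0.49 from P1 to P7.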

How the results depend on the processing

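Of 310 alternatives for the 25 member results that passed, 270 kept the direction and the call, 36 lost the call, 4 moved with 1 library left and 0 reversed. Of 480 for the 37 that did not pass, 430 kept direction and side, 15 passed, 4 moved and 31 reversed, 18 of these for Tgfb3. The cause was not tested.

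The number of the 6 members that passed is given with, in brackets, the share of all genes that passed in the same fit. LPsCs at E14 had 2 (14.1%) against all other cells, and 1 (5.71%) with no library block. Against MPsCs at E14 they had 2 (3.16%), 1 with no block (1.48%), no filter (1.38%) or every second gate marker (2.54%), and 0 without cells over 3000 genes (1.9%). At E16 they had 2 (10.1%) against all other cells, 1 with no block (5.09%), no filter (1.58%), a pseudocount of 1 CPM (6.77%), recovered UMIs (10%) or stricter gates (8.06%), and 1 to 2 without 1 library. Against MPsCs at E16 they had 0 (0.409%), 1 under looser gates (1.02%) and 0 to 2 without 1 library. Pillar and Deiters cells had 1 at P1 (39.7%), with 1 to 2 without 1 library. At P7 they had 1 (31.2%), 0 with no block (20.9%) or every second marker (32.5%), and 2 under stricter (31%) or looser gates (34.1%). KO panel cells at E14 had 1 (16%), 4 with no filter (10.9%), Tgfb1, Tgfbr2 and Tgfbr3 among them, and 2 with recovered UMIs (21%) or looser gates (18.6%). At E16 they had 2 (10.2%), 1 with no filter (2.4%) or every second marker (5.34%), 0 with no block (3.19%), and 1 to 2 without 1 library. At P1 they had 1 (32%), 0 with no block (3.75%), and 2 under stricter gates (28.1%) or without cells over 3000 genes (25.5%). At P7 they had 1 (14.6%) and 0 with no block (3.98%), stricter gates (8.62%) or every second marker (10.2%). HCs at P1 against E16 had 2 (16.9%), 1 with a pseudocount of 1 CPM (15.8%), no filter (5.66%) or without cells over 3000 genes (16.1%), and 1 to 2 without 1 library. KO panel cells had 0 for P1 against E16 (6.58%), 1 with recovered UMIs (7.32%) and 0 to 1 without 1 library, and for P7 against P1 1 (18.8%), 2 with no filter (10.7%) and 0 to 1 without 1 library.

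Over all genes, 0.409 to 59.9% passed in the 21 comparisons, against 0.164 to 31.1% with no filter and 0.268 to 59.1% with a pseudocount of 1 CPM, fewer in all 21. With no block, 0.163 to 42.8% passed, fewer in all 14 comparisons within an age. The share was lower in 18 of 21 under stricter gates, 17 with every second marker and 15 without cells over 3000 genes, and higher in 19 under looser gates and 14 with recovered UMIs.

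Reversed values on the log2 scale were as follows, and none of them passed the threshold. Tgfb3 in LPsCs against MPsCs became 0.04 at E14 under stricter gates (0.0352), looser gates (0.0358) and every second marker (0.0392). At E16 it became -0.0044 with a pseudocount of 1 CPM, -0.0554 under looser gates and -0.50 with every second marker, and ranged from -0.28 to 0.28 without 1 library, while in HCs against LPsCs it ranged from -0.23 to 0.28. Tgfb3 became 0.004 in pillar and Deiters cells at P1 under stricter gates, 0.0024 and 0.0435 in KO panel cells at P1 under stricter gates and every second marker, and 0.0214 and 0.13 in pillar and Deiters cells at P7 against P1 with every second marker and without cells over 3000 genes. In KO panel cells it ranged from -0.0354 to 0.0874 at P1 against E16 and from -0.0797 to 0.40 at P7 against P1 without 1 library, and was -0.16 in the latter under stricter gates. Tgfbr1 became -0.0932 in pillar and Deiters cells at P7 without cells over 3000 genes, -0.28 in KO panel cells at P7 and -0.0137 in Hensen's cells at P1 with every second marker, and -0.098 in the last without Scrublet doublets, with -0.16 to 0.23 without 1 library. Tgfb2 in HCs at P7 against P1 became 0.0076 without Scrublet doublets and 0.18 without cells over 3000 genes (-0.39 to 0.0599 without 1 library), and in KO panel cells at E16 against E14 -0.0285 under stricter gates (-0.0363 to 0.15 without 1 library).

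Replicate numbers do not pair libraries of different ages. With the number as a replicate block, Tgfb3 in KO panel cells at P1 against E16 became -0.0192. No such block was possible for P7 against P1, whose libraries share 1 number. With 1 library left at E14 or P7 there was no test. Depth limits Tgfb1, Tgfbr2 and Tgfbr3, which were tested only with no filter, and classes of under 50 cells. Median UMIs differ 2478 to 5647.5 between libraries, so shares were thinned to 1500 UMIs.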
